A study of Homo sapiens with 12 samples.

Results

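The MHC class I presentation genes described here are HLA-B, HLA-C, HLA-E and HLA-F, which encode class I heavy chains, B2M, which encodes their light chain, TAP1, TAP2 and TAPBP, which encode the peptide transporter and its loading chaperone, and NLRC5, which encodes a transactivator of class I promoters. They were chosen by gene symbol, and each symbol had 1 row, so the group is 9 of the 62656 genes in the count table. Libraries were made from total RNA of LoVo and HCT116, established human colorectal cancer cell lines. The 4 groups of 3 libraries were LoVo with knockdown of the long non-coding RNA SLERT, LoVo control, HCT116 with SLERT overexpression and HCT116 control. The columns of the LoVo arms are headed Sh and ShNC and those of the HCT116 arms OE and Vector, so each manipulated arm has a control of its own kind. How SLERT was lowered or raised, the construct, the time after delivery and whether an arm was 1 clone or a pool were not given in the sources used here. All 9 genes passed the filter on low counts in each line.

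Class I molecules carry short peptides, mostly made by the proteasome, to the cell surface, where CD8 T cells and natural killer cells read them. TAP1 and TAP2 form the pump that brings the peptides into the endoplasmic reticulum, tapasin, the product of TAPBP, holds the empty heavy chain and its light chain beside the pump, and the loaded complex then leaves for the surface. HLA-B and HLA-C are classical, polymorphic heavy chains, HLA-E presents leader peptides of other class I chains to natural killer cell receptors, and HLA-F is a non-classical heavy chain found on few cells. In colorectal tumours, above all those with failed mismatch repair, loss of parts of this machinery is well known. Known drivers of class I transcription are NLRC5 acting through an upstream X and Y box module, NF-kB and interferon response elements. Not every member is known to use each of them.

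On GRCh38 with GENCODE release 29, 7 of the 9 genes lie in the region of the major histocompatibility complex on chromosome 6. From one end of it, HLA-F spans chr6:29722775-29738528 (ENSG00000204642) on the plus strand and HLA-E chr6:30489467-30494205 (ENSG00000204592) on the plus strand. HLA-C spans chr6:31268749-31272130 (ENSG00000204525) and HLA-B chr6:31269491-31357188 (ENSG00000234745), both on the minus strand. TAP2 spans chr6:32821833-32838780 (ENSG00000204267), TAP1 chr6:32845209-32853978 (ENSG00000168394) and TAPBP chr6:33299694-33314387 (ENSG00000231925), all on the minus strand. B2M lies at chr15:44711487-44718877 (ENSG00000166710) and NLRC5 at chr16:56989485-57083531 (ENSG00000140853), both on the plus strand. The HLA-B record is long because 1 transcript extends far to the left, which is the 3′ side on the minus strand. The record overlaps HLA-C on the same strand. Of the 50-base words in the principal transcript, 35.8% in TAP2 and 6.71% in HLA-C also occurred in another gene, against 2.54% in HLA-B and 0% in B2M. Reads from such stretches may have been split or dropped in counting.

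Promoter windows from RefSeq on GRCh38.p14 matched 7 of the 9 members, and HLA-E and NLRC5 are named only. Stretches of 6 of them are shown because they let the genes that fell in LoVo be read beside those that did not pass the test. For HLA-B, HLA-C and B2M the stretch runs from -200 to -41 relative to the start. For HLA-F, TAP1 and TAPBP it is the 30 bases around the interferon response element. Capitals mark a match on either strand to the CCAAT box ATTGG, to the CRE-like TGACG, to the interferon response core TTTCNNTT, to its longer form, the core with TC directly after it, which therefore overlaps the core, or to the kappaB consensus. All are written 5′ to 3′ on the gene's strand.
HLA-B, chr6:31357220-31357379, minus strand: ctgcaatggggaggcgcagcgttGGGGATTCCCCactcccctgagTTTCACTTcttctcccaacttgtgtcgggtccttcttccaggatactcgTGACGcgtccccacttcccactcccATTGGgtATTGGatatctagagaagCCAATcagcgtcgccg
HLA-C, chr6:31272133-31272292, minus strand: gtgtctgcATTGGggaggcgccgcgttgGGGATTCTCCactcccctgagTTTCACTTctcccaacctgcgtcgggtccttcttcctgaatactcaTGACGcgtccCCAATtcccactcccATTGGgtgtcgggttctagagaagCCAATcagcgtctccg
HLA-F, chr6:29723268-29723297, plus strand: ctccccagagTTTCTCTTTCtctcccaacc
B2M, chr15:44711317-44711476, plus strand: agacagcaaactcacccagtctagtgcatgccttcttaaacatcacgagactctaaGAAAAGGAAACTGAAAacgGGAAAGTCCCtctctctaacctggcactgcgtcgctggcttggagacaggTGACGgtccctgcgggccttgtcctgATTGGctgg
TAP1, chr6:32853816-32853845, minus strand: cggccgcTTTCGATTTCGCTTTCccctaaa
TAPBP, chr6:33314079-33314108, minus strand: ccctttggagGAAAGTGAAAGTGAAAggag

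The motifs were chosen with these sequences in view, and a match is a description and not a shown site. In 200-base windows, the core TTTCNNTT was present in all 7 matched members (for TAP1 in 1 of its windows), while 16.1% of 35116 RefSeq promoter windows held it. The longer form, found in 2.4% of all windows, was present in HLA-F, B2M, TAP1, TAP2 and TAPBP and was not among the letters of the HLA-B and HLA-C windows. The CCAAT box, found in 28% of windows, was present in HLA-B, HLA-C, HLA-F and B2M. TGACG, found in 18.4% of windows, was present in HLA-B, HLA-C, B2M and TAP2, and the kappaB consensus, found in 8.14%, in HLA-B, HLA-C, B2M, TAP1 and TAPBP. Aligned over 196 bases, the HLA-B and HLA-C windows were 91.3% identical, and HLA-F was 83.2% identical to HLA-B. Between B2M and the heavy chains identity was 56% to 60.2%.

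Library depth ran from 14.46 to 17.23 M counts. SLERT is made from introns of TBRG4 and ends in the small nucleolar RNAs SNORA5A and SNORA5C, which served as its readout. SNORA5C had 1926 counts over the 3 HCT116 overexpression libraries against 16 in the HCT116 controls, and 37 in the LoVo libraries labelled SLERT knockdown against 37 in the LoVo controls. TBRG4, the host gene, does not measure SLERT itself. It was not called in LoVo (log2 fold change 0.07, SE 0.061, edgeR adjusted p = 0.413) and was called higher in HCT116 overexpression (log2 fold change 0.66). The readout showed the overexpression, and no fall was detectable in the knockdown at this depth, where the 95% interval of the SNORA5C change was -0.92 to 0.87. The LoVo libraries are given by their labels. All 9 colorectal epithelial markers exceeded 1 CPM in LoVo, and 5 did in HCT116 overexpression and 6 in HCT116 control libraries. Their sum was 6230 to 6750 CPM in LoVo knockdown against 7060 to 7540 CPM in LoVo control, and 3670 to 3960 CPM in HCT116 overexpression against 3500 to 3620 CPM in HCT116 control, most of it KRT8. The summed level of 12 leukocyte markers was 2.56 to 3.69 CPM in LoVo knockdown and 4.06 to 4.48 in LoVo control, and 2.56 to 5.68 in HCT116 overexpression and 4.48 to 5.67 in HCT116 control, with TYROBP at 0 in every library. LYZ made up most of the LoVo sums, with 2.24 CPM in knockdown and 2.59 CPM in control, and several others rest on a few counts. Summed fibroblast and endothelial markers, 9 in number, were 3.59 to 4.9 CPM in LoVo knockdown against 14.7 to 15.7 in LoVo control, and 72.8 to 79.1 in HCT116 overexpression against 81.1 to 88 in HCT116 control. A single gene gave the largest part of the sum in each line. It was COL3A1 in LoVo, with 2.09 CPM in knockdown against 12.3 CPM in control, and COL1A1 in HCT116, with 71.3 CPM in overexpression against 82.2 CPM in control. The part of these markers in the results below was not tested.

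Per gene length, the order of the members differed between the lines and hardly within them. The values of this paragraph are levels in FPKM, as mean ± SD over 3 libraries. In LoVo knockdown, HLA-E was highest with 52.4 ± 2.5, before HLA-C with 28.3 ± 2.26 and TAPBP with 16.4 ± 1.01. B2M with 9.93 ± 0.978, TAP1 with 8.91 ± 0.458 and HLA-B with 8.3 ± 0.568 followed, and neighbours among these 3 overlapped between libraries. TAP2 had 3.37 ± 0.192, and HLA-F with 1.33 ± 0.0668 and NLRC5 with 1.19 ± 0.0943 overlapped at the bottom. LoVo control kept this order except that TAP1, with 11.8 ± 0.972, stood level with B2M at 11.1 ± 0.514. In HCT116 overexpression, HLA-C was highest with 101 ± 5.5, before B2M with 74.3 ± 1.48, HLA-E with 55.2 ± 1.51 and HLA-B with 20.2 ± 2.26. TAP1 with 9.01 ± 0.976, TAPBP with 7.21 ± 0.605, TAP2 with 2.45 ± 0.0502, HLA-F with 2.03 ± 0.247 and NLRC5 with 1.05 ± 0.137 came below, and no neighbours overlapped, though TAP1 and TAPBP, and TAP2 and HLA-F, came close. HCT116 control had the same order, with B2M at 74.6 ± 1.86 and HLA-E at 59.8 ± 1.1. FPKM here used lengths longer than 1 transcript, 4623 bases for HLA-B against 1547 in its principal transcript and 2507 for HLA-C against 1554. The same counts set against the length of the principal transcript put HLA-B in HCT116 overexpression at 60.4 ± 6.75, beside HLA-E at 62.1 ± 1.69, and HLA-C in LoVo control at 63.1 ± 4.98, beside HLA-E at 66.7 ± 1.92. They also put HLA-B above B2M and TAP1 in LoVo, so the order of these 3 depends on the length used. In LoVo knockdown HLA-B had 24.8 ± 1.7, B2M 18.2 ± 1.79 and TAP1 14.3 ± 0.733. In LoVo control HLA-B had 29 ± 2.48, B2M 20.3 ± 0.941 and TAP1 18.8 ± 1.56.

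**Figure D1:**
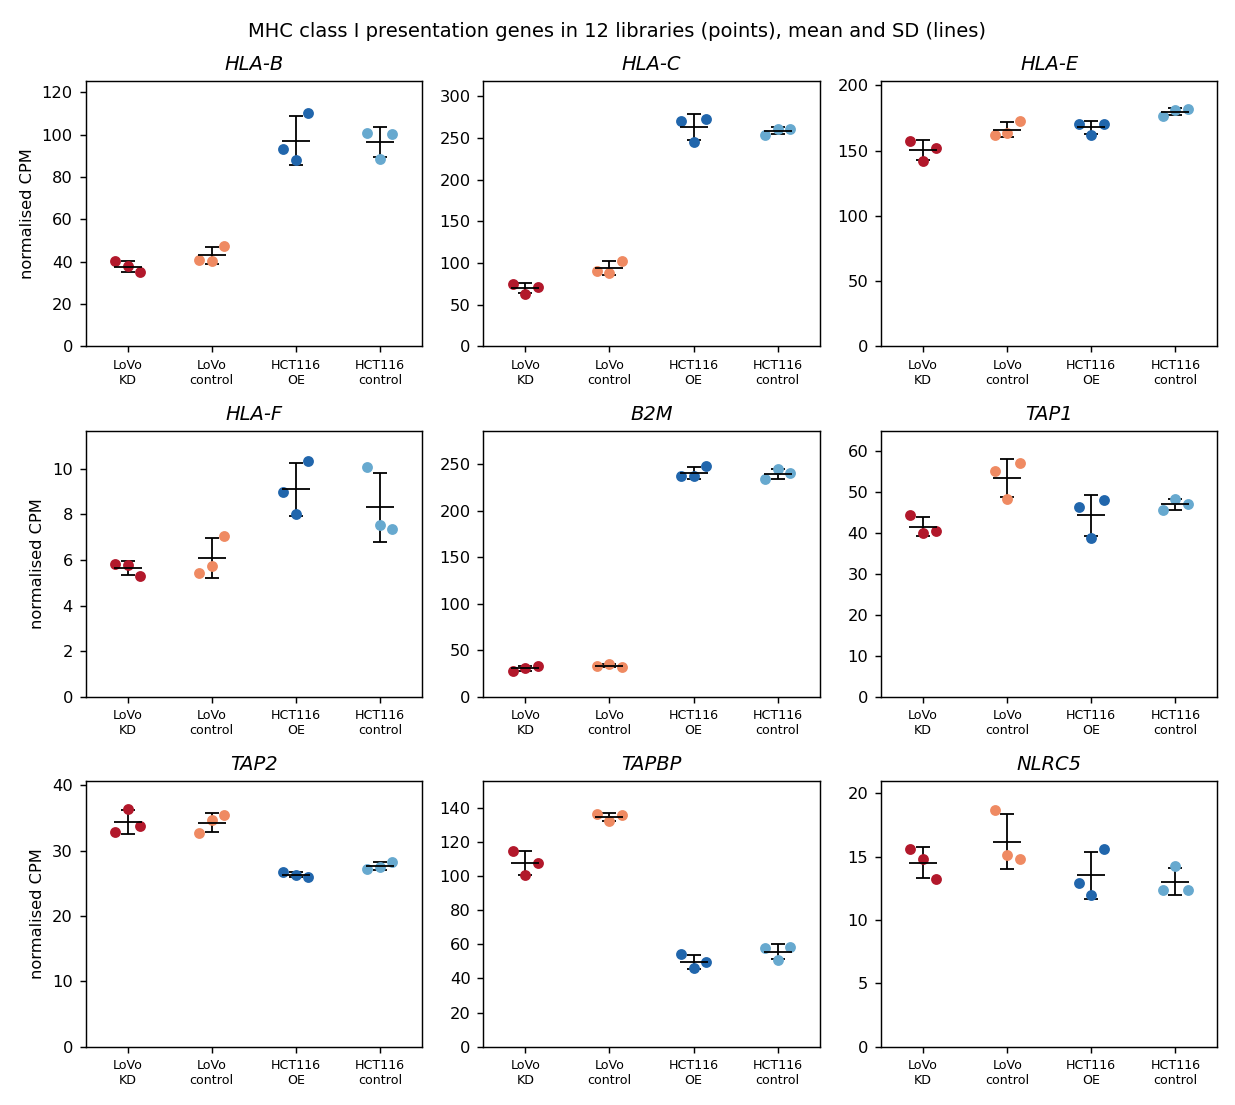
Normalised CPM, counts scaled to library size (vertical axes from 0), of the 9 genes in each of the 12 libraries (points), with the mean and SD of each group (lines). B2M, HLA-B and HLA-C stood far lower in LoVo than in HCT116 and TAPBP higher, while HLA-C, TAP1 and TAPBP were lower in LoVo knockdown than in LoVo control.

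Knockdown of SLERT in LoVo was set against its control to ask which members moved when the libraries are labelled as having less of this RNA. HLA-C, TAP1 and TAPBP fell, and the other 6 members did not pass the test. All 9 log2 fold changes were below 0, although that of TAP2 stood at 0.002 under upper quartile scaling. Their median was -0.16 against 0.000491 over all tested genes, 49.9% of which were below 0. The members were chosen with earlier results of these data known, so their shared direction is a description and no test of the group. The 3 of 9 members called stand beside 26.3% of the 16253 genes tested in LoVo, so the number of calls is near the background and is no result about the group, and all 3 were lower where 13.7% of all genes were. Values are CPM, counts scaled to the library total and by TMM, a normalisation that assumes most genes do not change. Changes are log2 fold changes from edgeR's quasi-likelihood test with Benjamini-Hochberg adjustment over all tested genes, called at an adjusted p under 0.05. The labels do not say whether the libraries of an arm were separate cultures, and the p-values therefore reflect a spread that may be technical. Fewer cells of a type and less RNA per cell cannot be told apart in such bulk samples.

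HLA-C, a classical heavy chain, had 74.9, 63.3 and 71.2 CPM in LoVo knockdown, against 90.6, 88.3 and 103 CPM in LoVo control. All knockdown libraries lay below all controls. Its log2 fold change was -0.44 (SE 0.075, edgeR adjusted p = 0.000158) and its level fell by 26.1%. HLA-B, its classical partner with a promoter window 91.3% identical, had 40.4, 37.8 and 34.95 CPM in LoVo knockdown, against 41.0, 40.6 and 47.6 CPM in LoVo control. The groups did not overlap, but the highest knockdown library stood just below the lower controls, and the log2 fold change of -0.20 (SE 0.085) was not called (edgeR adjusted p = 0.0905). HLA-E, the ligand of natural killer cell receptors, had 157.5, 142 and 152 CPM in LoVo knockdown, against 162, 164 and 173 CPM in LoVo control. These groups did not overlap either, with a log2 fold change of -0.15 (SE 0.061) that was not called (edgeR adjusted p = 0.0769). HLA-F, the least abundant heavy chain, had 5.84, 5.78 and 5.30 CPM in LoVo knockdown, against 5.44, 5.75 and 7.06 CPM in LoVo control. The groups overlapped, and the log2 fold change was -0.11 (SE 0.16, 95% interval -0.45 to 0.22, edgeR adjusted p = 0.658).

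B2M, the light chain shared by all class I heavy chains, had 27.5, 30.8 and 33.2 CPM in LoVo knockdown, against 33.1, 34.6 and 31.8 CPM in LoVo control. The groups overlapped and the log2 fold change was -0.13 (SE 0.088, edgeR adjusted p = 0.299). These levels rest on 409 to 507 and 478 to 542 counts per library.

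TAP1, one chain of the peptide transporter, had 44.2, 39.9 and 40.4 CPM in LoVo knockdown, against 55.0, 48.3 and 56.9 CPM in LoVo control. All 3 knockdown libraries were below all 3 controls, with a log2 fold change of -0.37 (SE 0.08, edgeR adjusted p = 0.00144). TAP2, its partner chain, had 32.9, 36.4 and 33.8 CPM in LoVo knockdown, against 32.6, 34.7 and 35.5 CPM in LoVo control. The groups lay over each other, and the log2 fold change of TAP2 was -0.002 (SE 0.082, 95% interval -0.17 to 0.17, edgeR adjusted p = 0.99). TAPBP, which encodes tapasin, had 115, 100.4 and 107.5 CPM in LoVo knockdown, against 136, 132 and 135 CPM in LoVo control. The gap between its groups was wider than the spread of the controls, with a log2 fold change of -0.33 (SE 0.064, edgeR adjusted p = 0.000511). NLRC5, the class I transactivator, had 15.6, 14.8 and 13.2 CPM in LoVo knockdown, against 18.7, 15.1 and 14.8 CPM in LoVo control. The groups overlapped, and 1 control library stood above the rest, with a log2 fold change of -0.16 (SE 0.12, edgeR adjusted p = 0.33).

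Groups did not overlap, with knockdown lower, for 5 of the 9 members, where 19.5% of all tested genes did so. HLA-C, TAP1 and TAPBP were called under each of the 15 other settings tried, including each library left out, with log2 fold changes of -0.49 to -0.36, -0.44 to -0.32 and -0.38 to -0.28. HLA-B (edgeR adjusted p = 0.0393) and HLA-E (edgeR adjusted p = 0.0386) were called as well without knockdown library 1, which takes the number of members called to 5, and HLA-E also with limma on log2(FPKM + 1) (adjusted p = 0.0432).

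**Figure D2:**
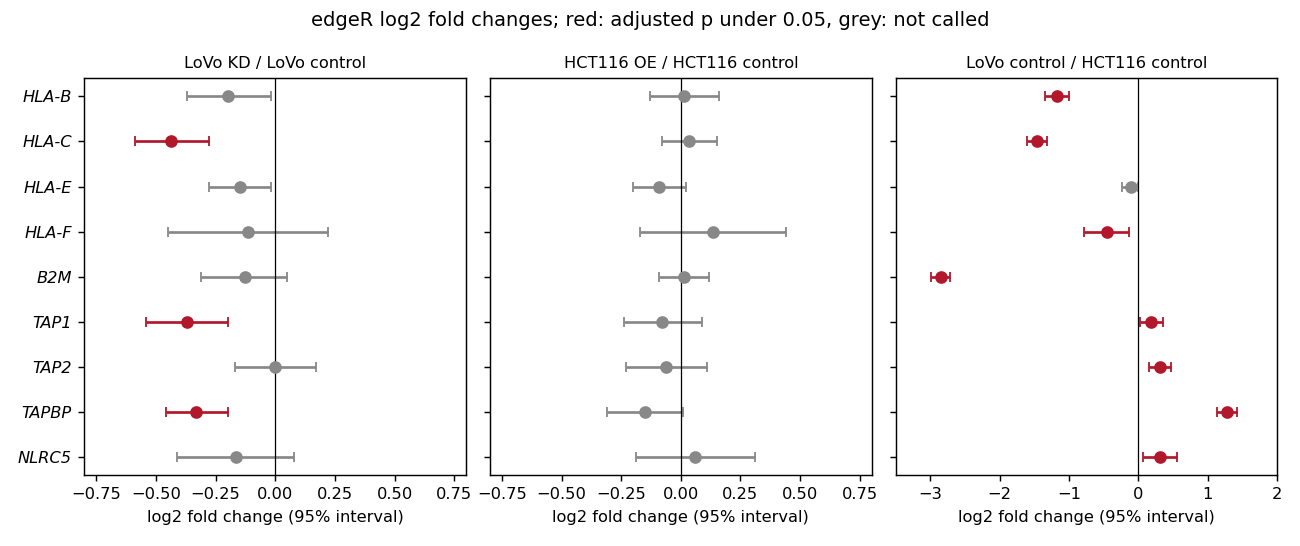
log2 fold changes with 95% intervals from edgeR for the 9 genes in LoVo knockdown over LoVo control (left), HCT116 overexpression over HCT116 control (middle) and LoVo control over HCT116 control (right, on a wider axis); red points passed an adjusted p under 0.05 and grey points did not. HLA-C, TAP1 and TAPBP are red on the left, none is red in the middle, and 8 are on the right, where B2M lies at -2.85.

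Overexpression of SLERT in HCT116 was set against the control headed Vector to ask the reverse, and none of the 9 members was called, where 0.914% of 15980 tested genes were. The count was 0 with edgeR and with DESeq2, and 0 members had an unadjusted p under 0.05, where 14.4% of all tested genes did. The median log2 fold change of the members was 0.01, against -0.00232 for all genes.

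HLA-C had 270.9, 245 and 273 CPM in HCT116 overexpression, against 254, 261 and 260.4 CPM in HCT116 control, and the overexpression libraries stood on both sides of the controls. Its log2 fold change was 0.03 (SE 0.054, 95% interval -0.08 to 0.15, edgeR adjusted p = 0.834). HLA-B had 93.2, 88.1 and 110.2 CPM in HCT116 overexpression, against 101, 88.5 and 100.5 CPM in HCT116 control, and the groups overlapped (log2 fold change 0.01, SE 0.073). HLA-E had 171, 162 and 171 CPM in HCT116 overexpression, against 176.5, 181 and 182 CPM in HCT116 control. The HLA-E groups did not overlap, with overexpression lower, but the log2 fold change of -0.09 (SE 0.054) was not called (edgeR adjusted p = 0.448). HLA-F had 8.96, 8.001 and 10.3 CPM in HCT116 overexpression, against 10.1, 7.54 and 7.35 CPM in HCT116 control, with overlap and a log2 fold change of 0.13 (SE 0.15). B2M had 237, 237 and 248 CPM in HCT116 overexpression, against 234, 245 and 240.2 CPM in HCT116 control. The groups overlapped, with a log2 fold change of 0.02 (SE 0.052, 95% interval -0.09 to 0.12).

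TAP1 had 46.3, 38.6 and 48.1 CPM in HCT116 overexpression, against 45.6, 48.2 and 47.1 CPM in HCT116 control, and all overexpression libraries but the lowest lay within the range of the controls (log2 fold change -0.08, SE 0.079). TAP2 had 26.7, 26.2 and 25.9 CPM in HCT116 overexpression, against 27.1, 27.4 and 28.3 CPM in HCT116 control. Its groups stood apart by little, with overexpression lower and a log2 fold change of -0.06 (SE 0.084) that was not called (edgeR adjusted p = 0.796). TAPBP had 54.1, 45.8 and 49.4 CPM in HCT116 overexpression, against 58.0, 50.6 and 58.4 CPM in HCT116 control. Its groups overlapped, and its log2 fold change of -0.15 (SE 0.077, edgeR adjusted p = 0.367) was the farthest from 0 in this line. NLRC5 had 12.9, 12 and 15.6 CPM in HCT116 overexpression, against 12.4, 14.2 and 12.4 CPM in HCT116 control, with overlap (log2 fold change 0.06, SE 0.12). Only HLA-E and TAP2 had groups that did not overlap, both with overexpression lower, where 10.5% of all tested genes did so.

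The effect of knockdown in LoVo minus the effect of overexpression in HCT116 was then tested in 1 fit of all 12 libraries. Cell line and kind of manipulation cannot be told apart in this difference. A gene that moved with SLERT in both lines would differ as well. HLA-C was the only member called, with a difference of -0.46 in log2 fold change (SE 0.093, edgeR adjusted p = 0.00159), 1 of 9 members where 11.6% of 18199 genes were called and 6.03% were lower. The differences of TAP1, -0.28 (SE 0.12, edgeR adjusted p = 0.123), and of TAPBP, -0.16 (SE 0.1, edgeR adjusted p = 0.324), were not called, so their falls in LoVo are not shown to differ from the change in HCT116. TAP1 was called without LoVo control library 2 (-0.36, edgeR adjusted p = 0.0476) or HCT116 overexpression library 2 (-0.39, edgeR adjusted p = 0.0252), which takes the count to 2. For the remaining 6 members the differences ran from -0.23 in HLA-F to 0.08 in TAP2.

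The control arms were compared to give each line's own levels. LoVo control had less B2M, HLA-C, HLA-B and HLA-F than HCT116 control, and more TAPBP, TAP2, NLRC5 and TAP1. Together 8 of 9 members were called, 4 in each direction, beside 76.6% of all tested genes, 37.9% higher and 38.7% lower, so most genes were called. B2M stood out in size, with 33.2 ± 1.41 CPM in LoVo control against 240 ± 5.24 CPM in HCT116 control (SD, n = 3 each), 7.22-fold lower in LoVo (log2 fold change -2.85, SE 0.066, edgeR adjusted p = 1.81e-25). HLA-C was 2.75-fold lower (log2 fold change -1.46, SE 0.066) and HLA-B 2.25-fold lower (-1.17, SE 0.083), while HLA-F was 1.37-fold lower (-0.45, SE 0.16). HLA-E was not called, with 166 ± 5.67 CPM in LoVo control against 180 ± 2.91 CPM in HCT116 control (log2 fold change -0.11, 95% interval -0.23 to 0, edgeR adjusted p = 0.0619), but was without LoVo knockdown library 2 (edgeR adjusted p = 0.0398) or LoVo control library 3 (0.0462). TAPBP was 2.42-fold higher in LoVo control, with 135 ± 2.2 CPM against 55.7 ± 4.41 CPM in HCT116 control (log2 fold change 1.27, SE 0.07, edgeR adjusted p = 4.04e-16). TAP2 (log2 fold change 0.31, SE 0.079), NLRC5 (0.32, SE 0.12) and TAP1 (0.18, SE 0.081) were higher by less. The calls of TAP1, HLA-F and NLRC5 depended on single libraries as well. TAP1 was not called without LoVo knockdown library 3, LoVo control library 1 or 3, HCT116 overexpression library 1 or any of the HCT116 control libraries, nor with no filter on low counts (edgeR adjusted p = 0.0565). HLA-F was lost without LoVo control library 1 or the HCT116 control headed 1, and NLRC5 without these or the HCT116 control headed 3. Without LoVo control library 1 or the HCT116 control headed 1, 5 members were called. Cell line and kind of control cannot be told apart in this comparison. Alleles of HLA-B and HLA-C that differ from the sequence used for alignment could lose reads in 1 line and not in the other, and their part in these values was not tested.

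The heavy chains and their light chain stood in different proportion in the lines, while the arms of a line overlapped. The ratio of summed HLA-B, HLA-C, HLA-E and HLA-F FPKM to B2M FPKM was 10.7, 8.46 and 8.398 in LoVo knockdown, against 9.60, 9.13 and 10.98 in LoVo control, and the groups overlapped. Means were 9.17 ± 1.29 in knockdown and 9.91 ± 0.963 in control (SD, n = 3 each), with p = 0.5 in a two-sided exact permutation test. The ratio was 2.49, 2.29 and 2.43 in HCT116 overexpression, against 2.48, 2.39 and 2.46 in HCT116 control (exact permutation p = 0.7). LoVo control and HCT116 control did not overlap, with means of 9.91 and 2.44, at the smallest p that 3 against 3 libraries allow, 0.1. With principal transcript lengths the mean ratios were 7.37 in LoVo knockdown, 8.03 in LoVo control, 2.14 in HCT116 overexpression and 2.16 in HCT116 control.

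Within the heavy chain sum the share of HLA-C was smaller in LoVo knockdown, with 31.8%, 30.3% and 31.8%, against 35.5%, 34.7% and 36.7% in LoVo control. The share of HLA-E was larger, with 57.4%, 58.3% and 58.3% in LoVo knockdown against 54.5%, 55.3% and 52.7% in LoVo control. HLA-C and HLA-E make up most of the sum, so these shares are 1 result and not a pair of them, and the HLA-E level itself was not higher in knockdown. Neither share overlapped between the arms, and both reached the smallest p of 0.1 in the exact permutation test, which cannot pass 0.05. In HCT116 the shares lay the other way by less, with HLA-C at 57.3%, 56.2% and 56.3% in overexpression against 54.5%, 55.7% and 54.8% in control (exact permutation p = 0.1). HLA-E made up 30.9%, 31.8% and 30.2% in HCT116 overexpression against 32.5%, 33.1% and 32.8% in HCT116 control (exact permutation p = 0.1).

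**Figure D3:**
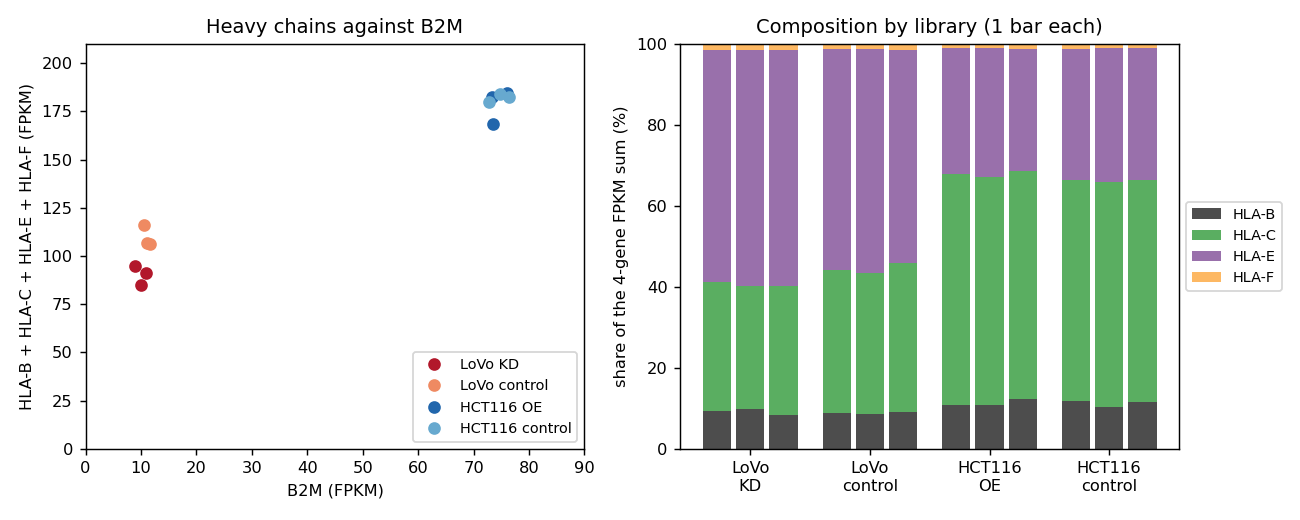
Left, summed FPKM of the 4 heavy chain genes (vertical) against B2M FPKM (horizontal) in the 12 libraries, coloured by group; right, the share of each heavy chain gene in that sum, 1 bar per library, in percent. The LoVo libraries sit at 8.89 to 11.6 FPKM of B2M and the HCT116 libraries at 72.7 to 76.5, and HLA-C makes up 30.3% to 36.7% of the sum in LoVo.

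Other genes of the pathway were followed as lists. They are read against the same shares of calls as the members, 12.6% higher and 13.7% lower in LoVo and 0.507% higher and 0.407% lower in HCT116. Of 6 loading and trimming genes, 1 rose and 1 fell in LoVo knockdown, with a median log2 fold change of 0.10. CANX, which encodes the chaperone calnexin, rose to 1010 ± 43.1 CPM in knockdown, against 789 ± 19.6 CPM in control (log2 fold change 0.34, SE 0.053, edgeR adjusted p = 4.57e-05). CALR, which encodes calreticulin of the loading complex, fell to 482 ± 10.6 CPM in LoVo knockdown, against 563 ± 2.81 CPM in LoVo control (-0.23, SE 0.052, edgeR adjusted p = 0.00201). CALR rose in HCT116 overexpression, with 894 ± 18.6 CPM against 757 ± 17.3 CPM in HCT116 control (0.25, SE 0.048, edgeR adjusted p = 0.00997), the only one of the 6 called there. That call was lost without overexpression library 3 (edgeR adjusted p = 0.0769) or the control headed 2 (edgeR adjusted p = 0.0861), and with limma on log2(FPKM + 1) (adjusted p = 0.176). The test of the difference of effects, knockdown in LoVo minus overexpression in HCT116, was passed by CALR, at -0.47 (SE 0.066, edgeR adjusted p = 1.66e-05). CANX passed it too, at 0.29 (SE 0.07, edgeR adjusted p = 0.0063), where 5.62% of all genes were called higher.

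Proteasome genes, whose products cut the peptides, gave few calls under the manipulation. None of 5 immunoproteasome genes was called in LoVo (median log2 fold change -0.06) and none of the 3 that could be tested in HCT116 (median 0.04). The smallest edgeR adjusted p among them in LoVo was 0.259, of PSMB9, which starts at chr6:32854192 beside TAP1 and faces away from it, and which had a log2 fold change of -0.16 (SE 0.1). Between the control arms the 3 that could be tested in both lines were higher in LoVo, where 37.9% of all tested genes were. PSMB8, a catalytic subunit encoded between TAP2 and TAP1, had 48.7 ± 3.47 CPM in LoVo control against 0.325 ± 0.133 CPM in HCT116 control (2255 against 16 counts over 3 libraries). PSMB8 was picked after its values were seen and passed the filter through its LoVo libraries, so these values are a description. A further list of 4 held constitutive catalytic subunits and the activator gene PSME3. None of them was called in LoVo and all 4 were lower in LoVo control than in HCT116 control, where 38.7% of all tested genes were lower. In the difference of effects 1 of the 4, a catalytic subunit, was called lower, where 6.03% of all tested genes were. PSME3, an activator subunit, was called in HCT116, with 220 ± 3.83 CPM in overexpression against 187 ± 6.34 CPM in control (0.24, SE 0.053, edgeR adjusted p = 0.0205). The PSME3 call was lost without overexpression library 2 (edgeR adjusted p = 0.0778) or 3 (0.11), or the control headed 1 (0.117) or 2 (0.147), and with limma on log2(FPKM + 1) (adjusted p = 0.173).

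Among 9 factors that bind class I and class II promoters or act through them, 3 rose and 2 fell in LoVo knockdown and none was called in HCT116. CIITA, the class II transactivator and relative of NLRC5, fell to 4.24 ± 0.876 CPM in knockdown, against 9.72 ± 1.44 CPM in control (log2 fold change -1.20, SE 0.17, edgeR adjusted p = 1.65e-05), a change of -0.28 with limma on log2(FPKM + 1). CREB1 (0.33, SE 0.092), ATF1 (0.33, SE 0.078) and NFYB (0.29, SE 0.078), factors known to bind CRE-like or CCAAT motifs, rose. RFXANK, a subunit of the X box factor and named after its value was seen, fell by 0.32 (SE 0.098, edgeR adjusted p = 0.017), and RFX5, its partner, was not called (-0.16, SE 0.064, edgeR adjusted p = 0.0762). Single controls held some of these calls. CREB1 was lost without LoVo control library 1 (edgeR adjusted p = 0.0595) or 3 (0.0587), NFYB without control library 3 (0.0697) and RFXANK without control library 1 (0.0796) or 2 (0.0586). With limma on log2(FPKM + 1), NFYB (adjusted p = 0.0633) and CREB1 (0.129) were not called and RFX5 was (0.0297).

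Of 14 interferon and NF-kB signalling genes, 1 rose and 3 fell in LoVo knockdown and none was called in HCT116. STAT2 (log2 fold change -0.36, SE 0.064, edgeR adjusted p = 0.000245) and TYK2 (-0.32, SE 0.074, edgeR adjusted p = 0.00257), both of the type I interferon pathway, fell. STAT2 was lower in HCT116 overexpression too, though not called (-0.24, SE 0.07, edgeR adjusted p = 0.0895), and TYK2 changed by -0.07 (SE 0.066) there. Neither passed the test of the difference of effects, at -0.10 (SE 0.093, edgeR adjusted p = 0.557) for STAT2 and -0.235 (SE 0.11, edgeR adjusted p = 0.156) for TYK2. JAK2, a kinase of the interferon gamma receptor, rose (0.38, SE 0.11, edgeR adjusted p = 0.0123), but not without knockdown library 3 (edgeR adjusted p = 0.0732) or control library 1 (0.0923), nor with limma on log2(FPKM + 1) (adjusted p = 0.115). IFNGR1, a chain of that receptor, fell (-0.17, SE 0.06, edgeR adjusted p = 0.0346), and lost the call without 5 of the 6 libraries, all except knockdown library 2, and with no filter on low counts (edgeR adjusted p = 0.069). IRF1, which carries the interferon gamma signal to class I promoters, had 17.1 ± 1.68 CPM in LoVo knockdown, against 17.6 ± 0.547 CPM in LoVo control. Its log2 fold change was -0.05 (SE 0.11, edgeR adjusted p = 0.795).

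The class II genes HLA-DRA, CD74 and HLA-DPA1 lay lower in LoVo knockdown too, the same direction as the class I members that fell. Of the 7 listed, 4 passed the filter there and 3 of these were called lower. HLA-DRA and HLA-DPA1 passed it through the control libraries, so this count is a description and no test of class II genes. HLA-DRA, a class II chain, had 0.321 ± 0.129 CPM in knockdown against 3.6 ± 0.363 CPM in control, from 15 against 167 counts over 3 libraries (log2 fold change -3.46, SE 0.35, edgeR adjusted p = 1.24e-07). It passed the filter through the control libraries, where it is high, so its values are a description and the size of its change is uncertain. CD74, the class II invariant chain, fell to 2.51 ± 0.197 CPM in knockdown against 15.1 ± 1.39 CPM in control (-2.59, SE 0.16, edgeR adjusted p = 2.1e-11), and HLA-DPA1 to 0.65 ± 0.2 CPM against 2.33 ± 0.643 CPM in control (-1.85, SE 0.36, edgeR adjusted p = 0.00053). HLA-DPA1 rests on 30 against 108 counts over 3 libraries. It also passed the filter through the control libraries, so its values are a description and the size of its change is uncertain as well. These sizes shrank to -1.67 for HLA-DRA, -1.52 for CD74 and -0.35 for HLA-DPA1 with limma on log2(FPKM + 1), which kept their calls. The summed leukocyte markers, mostly LYZ, were 2.56 to 3.69 CPM in knockdown against 4.06 to 4.48 CPM in control, and their part was not tested. None of 6 class II genes was called in HCT116. Of 8 other class I-like genes and NKG2D ligands that could be tested in each line, none was called in either, and HLA-G had 0 counts in all libraries.

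**Figure D4:**
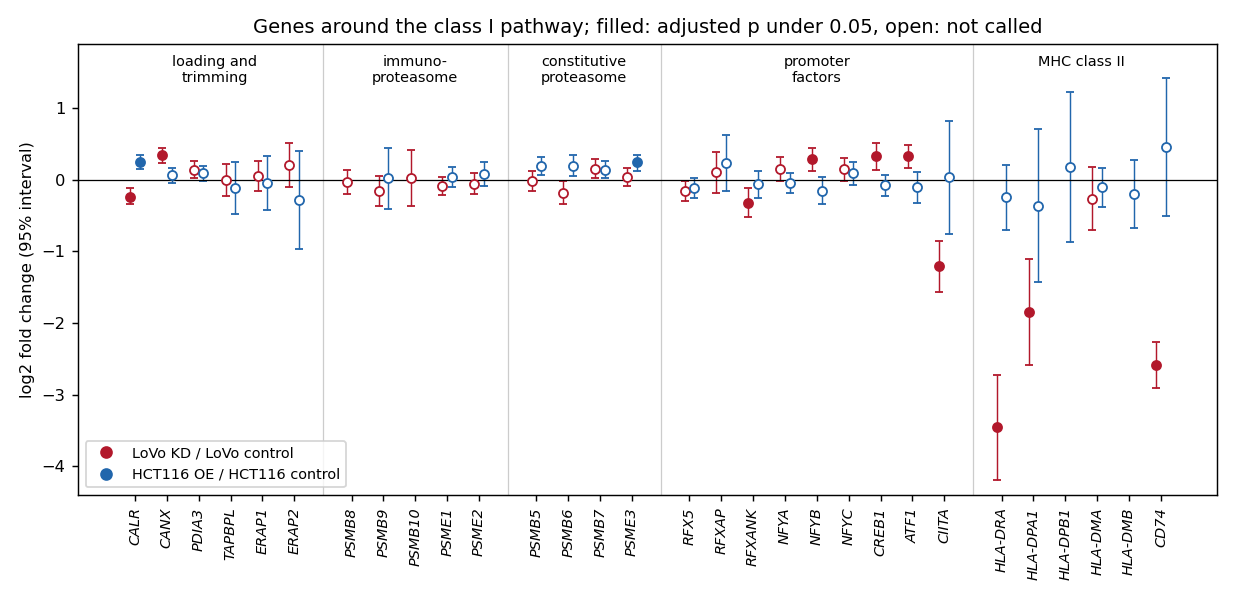
log2 fold changes with 95% intervals from edgeR (vertical) for the tested genes of 5 lists around the class I pathway, LoVo knockdown over LoVo control in red and HCT116 overexpression over HCT116 control in blue; filled points passed an adjusted p under 0.05. In LoVo, HLA-DRA lies at -3.46 and CD74 at -2.59, and CANX at 0.34.

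Genes outside the group were ranked by how closely their log2 CPM, centred on their own mean, followed a member over the 12 libraries, among 15273 candidates. The nearest to HLA-B were SEC14L1, ULBP3 and HCFC1R1, at root mean square differences of 0.096, 0.0964 and 0.0975, where the median candidate lay at 0.738. BAG6, COTL1 and RASSF5 were nearest to B2M, at 0.106, 0.126 and 0.135, against a median of 1.47. MRPL20-AS1, TMEM52 and DUSP14 were nearest to NLRC5, at 0.0892, 0.0982 and 0.101, against a median of 0.435. The difference between the lines makes up most of these patterns for HLA-B and B2M, and the 12 libraries share line and arm, so the ranking is a description.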

How the data were processed

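RNA was sequenced from 12 libraries. The count table deposited by the authors holds whole-number counts per gene, not normalised, and the deposited FPKM table, made by the authors, equals those counts divided by gene length and column total (largest relative deviation 4.4e-16). The submitters' processing notes name HISAT2 2.1.0 and the build GRCh38. Read counter, annotation release and strand use were not given in the sources used here. The extraction text in the labels speaks of retinas, although the samples are labelled as colorectal cancer lines. The 8 retinal markers summed to 3.26 to 14.9 CPM per library, and RPE65 was the highest of them in each group. Its mean was 11.9 CPM in HCT116 overexpression, 11.5 in HCT116 control, 3.47 in LoVo knockdown and 2.58 in LoVo control. The HCT116 control columns are headed vector with numbers of their own, so they were used as replicates of that group without a link to a sample. Within groups, chi-square per degree of freedom between libraries was 2.46 to 7.23, so each counted as 1 replicate.

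Counts were tested with edgeR 4.0.16 in R 4.3.3 (filterByExpr, TMM, quasi-likelihood F test, Benjamini-Hochberg over all tested genes, calls at adjusted p under 0.05), per line for the manipulations and over all 12 libraries for the difference of effects and for the control arms. The filter kept 99.77% of counts in LoVo and 99.78% in HCT116, and edgeR's common coefficient of variation was 6.41% and 6%. Intervals are 95% and come from the fit. FPKM ratios were compared by two-sided exact permutation. The fit was tested on simulated data. Promoter windows and neighbours came from RefSeq on GRCh38.p14, positions, principal lengths and shared 50-base words from GENCODE release 29, and symbols were found for 62639 of 62656 identifiers. The alternatives were DESeq2 1.42.0, limma 3.58.1 (voom, and log2(FPKM + 1) or log2(FPKM + 0.1)), other scalings, no filter, all libraries in 1 fit, a replicate block and each library left out.

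The members and lists were chosen with earlier results of these data known. All members are named. Of the pathway lists, genes past the threshold in a line are named, up to 4 per list and line with the smallest p, beside HLA-DRA, CD74, CIITA, IRF1 and RFX5; 1 further gene is not reported here. RFXANK, PSMB8, PSMB9, HLA-G and the motifs were added after their values were seen. Nearest patterns were taken among genes with a symbol and a mean of at least 1 CPM, using log2 CPM (prior count 2).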

Additional observations from a re-analysis of the deposited data

Results flagged for a closer look

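The effects in the lines, knockdown over control in LoVo and overexpression over control in HCT116, differed for 11 of the 29 genes compared, by an edgeR test of the difference itself over all 12 libraries, which 11.6% of all 18199 genes tested passed. Most of the compared genes other than the members were named because they had passed the threshold in a line, so the count is raised by that choice. Cell line and kind of manipulation, knockdown or overexpression, cannot be told apart in these differences. Among the members HLA-C alone differed, at -0.46 on the log2 scale. CALR of the loading complex differed by -0.47 and CANX by 0.29. Of the promoter factors NFYB differed by 0.46, CREB1 by 0.42 and ATF1 by 0.45, and each of these 3 lost the call without one or another of several single libraries, at adjusted p of up to 0.0648, 0.0742 and 0.0919. Of the class II genes HLA-DRA differed by -3.20 and CD74 by -3.02. At the SLERT locus TBRG4 differed by -0.57, SNORA5C by -6.97 and SNORA5A by -8.87. SNORA5A had no counts in the HCT116 controls and its fitted value depends on the prior count. Both small nucleolar RNAs are parts of the overexpressed RNA, so their differences follow from the manipulation and raise the count of 11. Groups of 3 libraries are too small for a check of single outlying libraries.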

How the results depend on the processing

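The number of members called in LoVo was 3 and became 5 with the replicate block, where HLA-B and HLA-E were added (edgeR adjusted p = 0.04 and 0.0117), and RFX5 was called too (0.023). The count of members ran from 3 to 5 with each library left out. Knockdown and control libraries with the same number correlated at 0.0513, 0.0611 and 0.0153 in their deviations, too little to pair them, although each correlated best with its own number (highest other 0.00212). No paired analysis was possible in HCT116 or for the difference of effects because the HCT116 control columns carry no replicate number of a sample. Leaving out single libraries gave 0 in HCT116 throughout, 1 to 2 for the difference of effects and 5 to 9 of 9 between the control arms, where the main counts were 0, 1 and 8. The heavy chain to B2M ratio differed by -0.73 in LoVo (-1.48 to -0.19 with libraries left out) and -0.04 in HCT116 (-0.08 to 0.02). The 3 members called in LoVo, and HLA-C in the difference of effects, kept direction and call under all settings tried. Sign reversed only in values that were not called. In LoVo these were TAP2 (0.002, 0.001, 0.005 and -0.042 to 0.028 with libraries left out), HLA-F (-0.189 to 0.007 with libraries left out) and SNORA5C (0.076, 0.023, 0.038, 0.013 and -0.213 to 0.452 with libraries left out). In HCT116 they were HLA-B (-0.01 and -0.082 to 0.081 with libraries left out), B2M (-0.006 and -0.004 to 0.029 with libraries left out), TAP1 (-0.134 to 0.014 with libraries left out), NLRC5 (-0.050 to 0.139 with libraries left out), CIITA (-0.008 and -0.488 to 0.467 with libraries left out), IRF1 (-0.003 and -0.097 to 0.181 with libraries left out), IFNGR1 (-0.093 to 0.047 with libraries left out), CD74 (-0.170 to 0.854 with libraries left out) and HLA-DPA1 (-1.242 to 0.053 with libraries left out), all in log2 fold change, and the cause was not tested. Each symbol had 1 row, so summing of haplotype rows could not be run. Counts of 81 to 106 per LoVo library limit HLA-F, and low levels limit the class II genes in HCT116.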
